A study of Mus musculus with 15 samples.

Results

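The MLL fusion complex was followed here through 9 genes, Kmt2a, Mllt3, Mllt1, Mllt10, Men1, Psip1, Dot1l, Aff1 and Aff4, in bone marrow of mice with MLL-AF9 leukemia. They were chosen by name, as MLL, AF9 and cofactors of the fusion protein, from 20723 genes listed in at least 1 of 4 deposited expression tables. All 9 were found in all 4 tables, and all 9 passed the filter on low values in every comparison, the lowest single value being 61.4 normalized counts for Mllt3.

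MLL, the product of Kmt2a, is a histone methyltransferase that places the H3K4 mark of active promoters and keeps homeobox genes switched on in blood stem cells. In leukemia its N-terminal part is joined to a partner protein such as AF9 (Mllt3), ENL (Mllt1), AF10 (Mllt10) or AF4 (Aff1), and the fusion draws elongation factors and DOT1L, the H3K79 methyltransferase, to its target genes. Menin (Men1) and LEDGF (Psip1) bind the part of MLL that the fusion keeps and tether it to chromatin.

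RNA of whole marrow from leukemic mice of the C57BL/6 strain was sequenced in 15 libraries that form 5 groups of 3. Every group carried the same oncogene: lineage-depleted cells had received MLL-AF9 with a GFP reporter on a retrovirus, were sorted for GFP, grew out in irradiated mice and were passed on serially, and marrow of the quaternary recipients was used. The groups differed in human GFI1 knocked in at the mouse Gfi1 locus; GFI1 is a DNA-binding factor that silences genes during blood formation. Group 36S (libraries 1 to 3, labelled GFI1 KI/KI) expressed human GFI1, group 36N (4 to 6, GFI1 36N/36N) its 36N variant, and group KD (7 to 9, GFI1 KD/KD) had GFI1 at 10 to 20% of the human gene's level. The remaining groups, 36S TMZ (1 to 3) and 36N TMZ (4 to 6), were leukemic marrow cells exposed to 50 µg/ml temozolomide (TMZ), an alkylating drug, for 20 h before RNA isolation. Age and sex of the mice are not in the labels. Titles number the MLL-AF9 leukemias 1 to 3 in 36S and 1 for all 36N and KD libraries, without a stated meaning, so p-values measure only the spread between these samples and may not cover the spread between leukemias.

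Column totals lay between 11265900 and 24264800 normalized counts, and replicates correlated at 0.942 to 0.981 across genes on the log scale. GFI1 itself was not analysed here, so these data do not check the genotype labels. All 8 markers of leukemic myeloid progenitors had means of at least 10 normalized counts in each untreated group. They did so in the TMZ groups too, so this does not check the labelled cell type. The untreated tables shared 1 scale, since their 36S values were identical. The table of 36N with and without TMZ and the table of TMZ libraries had been normalized separately, and values are compared within a table. The TMZ libraries stood far apart from the untreated ones in markers of other blood cells, as given below with the TMZ results.

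Levels of different genes were compared per kilobase of merged exons (GENCODE M21, mm10). In untreated 36S, Aff1 led at 379 ± 24.9 normalized counts per kb (SD, n = 3), before Mllt10 at 309.9 ± 34.4, Kmt2a at 305 ± 46.8 and Dot1l at 231 ± 16.8. Below them came Psip1 at 222 ± 31.9, Mllt1 at 198 ± 9.45, Men1 at 143 ± 9.06, Aff4 at 67.1 ± 9.10 and Mllt3 at 10.0 ± 2.10. Kmt2a overlapped with both Mllt10 and Aff1 across libraries, and Psip1 with both Dot1l and Mllt1, while Men1, Aff4 and Mllt3 each lay below the gene before them in every library. In 36N the order began with Mllt10 (368 ± 29.3), Aff1 (314 ± 38.4) and Kmt2a (291 ± 23.3), and in KD with Mllt10 (315 ± 50.8), Kmt2a (273 ± 71.4) and Aff1 (219 ± 54.0). Mllt3 was lowest in both, at 7.40 ± 2.23 in 36N and 6.94 ± 2.63 in KD. The order also depends on the table: Men1 lay above Aff4 in the untreated table (129 against 71.3 per kb) and below it for the same 36N libraries in the table with TMZ (92.1 against 142).

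The comparison of untreated 36N with 36S asked whether the 36N form of GFI1 goes with another level of the fusion machinery. None of the 9 genes passed in either direction at an adjusted p under 0.05 (limma-trend with Benjamini-Hochberg adjustment over 13137 genes), against 2.55% of all genes called higher and 2.01% called lower. At an unadjusted p under 0.05 there were 3 of the 9 (Mllt1, Dot1l and Aff1) and 2679 of all genes. The median log2 fold change of the 9 was -0.23, against -0.01 for all genes tested.

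**Figure D1:**
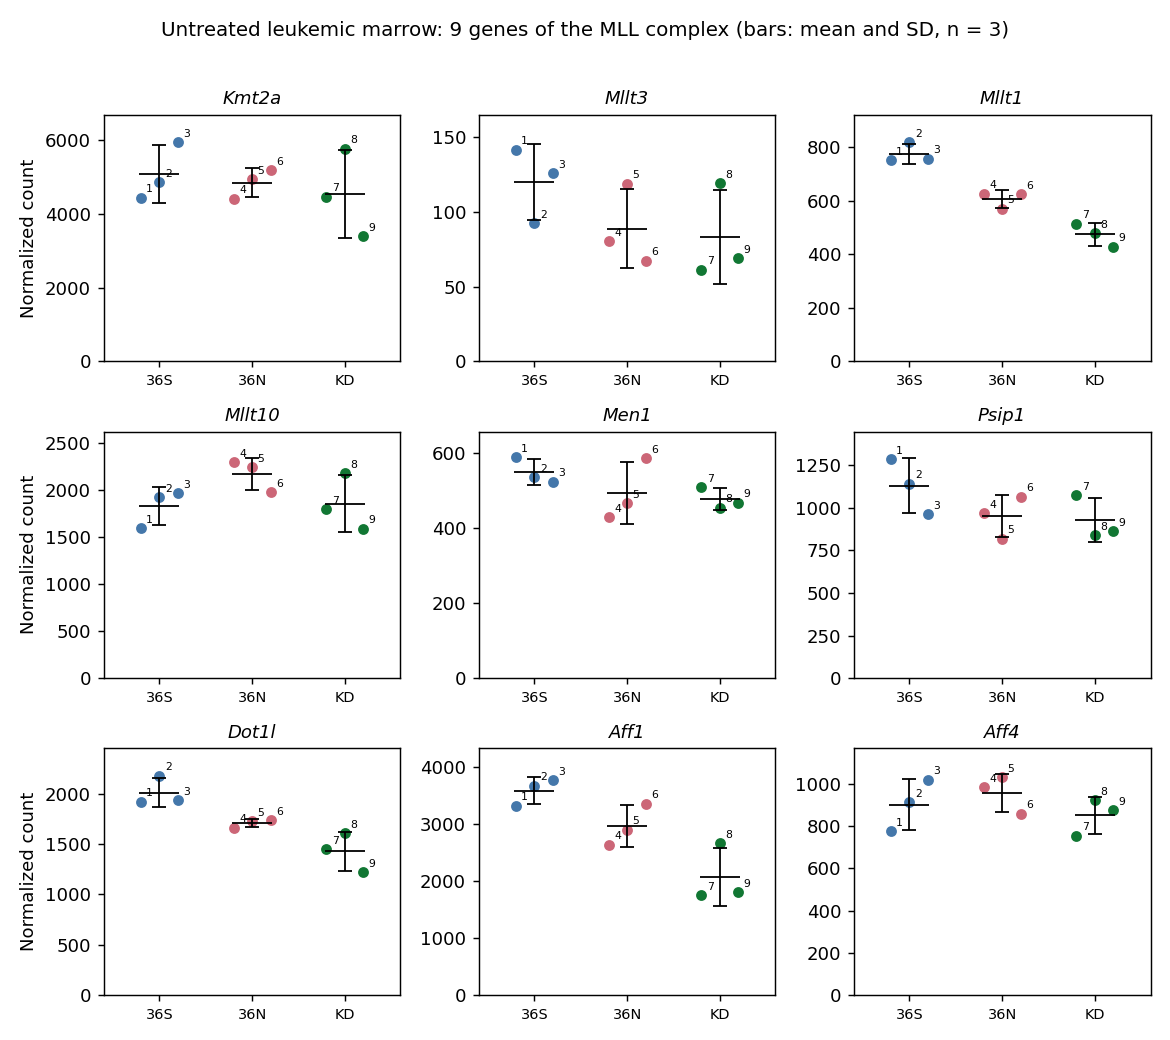
Normalized counts of the 9 genes (vertical axes from 0) in the untreated libraries of 36S, 36N and KD, with each point labelled by its library number and bars for the mean and SD of 3 libraries. Mllt1 is lower in all KD libraries (428 to 515) than in all 36N libraries (570 to 626), and lower there than in all 36S libraries (751 to 818).

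Kmt2a (mm10 chromosome 9, 44803355 to 44881296), which encodes MLL itself, stood at 4444, 4866 and 5954 normalized counts in 36S libraries 1 to 3 and at 4421, 4938 and 5182 in 36N libraries 4 to 6. The groups overlapped, and the 95% interval of the log2 fold change ran from -0.36 to 0.23 around -0.06. Mllt3 (chromosome 4, 87769925 to 88033364), the gene of AF9, was low in every untreated library, at 142, 92.4 and 126 in 36S and at 80.5, 119 and 67.3 in 36N. These groups overlapped as well (log2 fold change -0.45, interval -1.05 to 0.16, adjusted p = 0.378 in limma). Reads of the retroviral fusion and of the mouse genes cannot be told apart in a table with 1 value per gene, and the species of the fusion cDNA is not given in the labels.

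Among the partners of elongation complexes, Mllt1 (chromosome 17, 56892611 to 56935415), whose product ENL reads acylated histones within the super elongation complex, was lower in all 36N libraries (626, 569.5 and 624) than in all 36S libraries (751, 818 and 757). The log2 fold change of -0.35 (SE 0.11) did not pass (limma adjusted p = 0.113). Mllt10 (chromosome 2, 18055237 to 18212388), whose product AF10 binds DOT1L and raises its activity, went the other way, at 2303, 2244 and 1978 in 36N against 1597, 1925 and 1969.9 in 36S. Its groups were separated by 8.52 counts between the closest libraries and the difference did not pass (log2 fold change 0.25, limma adjusted p = 0.276).

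Dot1l (chromosome 10, 80755206 to 80795461) stood at 1666, 1731 and 1739.8 in 36N against 1924, 2183 and 1938 in 36S. It was lower in every 36N library than in every 36S library, with a log2 fold change of -0.23 (limma adjusted p = 0.233). Aff1 stood at 2641, 2897 and 3358 in 36N against 3322, 3675 and 3767 in 36S, only 36N library 6 reaching into the 36S range. The 36N ranges were 859 to 1032 for Aff4, 430.1 to 586 for Men1 and 818 to 1065.5 for Psip1, and those of 36S 776 to 1019.7, 524 to 589 and 961 to 1285. Aff1, Aff4, Men1 and Psip1 thus overlapped between the groups, with log2 fold changes of -0.28, 0.09, -0.16 and -0.25 and adjusted p-values from 0.224 to 0.737 in limma. Of these, Men1 had an interval from -0.49 to 0.16 and Psip1 one from -0.57 to 0.08. Markers of other cells differed here too: the summed level of 8 markers of leukemic myeloid progenitors was 38882 to 49112 in 36N against 68849.6 to 147972 in 36S, and that of 8 monocyte and macrophage markers 48819.8 to 54423 against 39149.5 to 44076. Of the progenitor markers, Mpo, Elane, Ctsg, Prtn3, Kit and Hoxa10 had lower means in 36N. Hoxa9 (1869 against 1741) and Meis1 (1368 against 1228) had higher ones. Of the monocyte and macrophage markers, Ly6c2, C1qa and C1qb had lower means in 36N, and the others higher ones. The part of these markers in the member values was not tested.

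The comparison of KD with 36S asked the same of a low level of GFI1. Of the 9 genes 3 fell and 0 rose, namely Mllt1, Dot1l and Aff1, against 4.86% of all 13109 genes called lower and 6.61% called higher in limma. The median log2 fold change of the 9 was -0.28, against -0.01 for all genes, and 8 of the 9 had a negative one. In bulk marrow, fewer cells that express a gene and less RNA per cell cannot be told apart.

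Mllt1 stood at 515, 479.6 and 428 in KD libraries 7 to 9, against 751, 818 and 757 in 36S. All KD libraries lay below all 36S libraries, with means of 474 ± 43.6 and 775 ± 37.0 (SD, n = 3), a 1.63-fold lower level. The log2 fold change was -0.71 (SE 0.13, limma adjusted p = 0.00927).

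Aff1 (chromosome 5, 103692374 to 103855322) encodes AF4, a scaffold of the super elongation complex that brings the kinase P-TEFb to MLL targets. It stood at 1751, 2659 and 1801 in KD against 3322, 3675 and 3767 in 36S. KD library 8 was the nearest to 36S, and the groups did not overlap. The means were 2070.2 ± 511 and 3588 ± 235, a 1.73-fold lower level (log2 fold change -0.82, SE 0.17, limma adjusted p = 0.0161).

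Dot1l, which encodes the H3K79 methyltransferase and a target of inhibitors in MLL leukemia, stood at 1449.6, 1611 and 1223 in KD against 1924, 2183 and 1938 in 36S. The groups did not overlap. Its mean was 1428 ± 195 against 2015 ± 146, a 1.41-fold lower level (log2 fold change -0.50, SE 0.14, limma adjusted p = 0.0478), close to the threshold.

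These 3 calls rested on few libraries. None of them passed without 36S library 2 or without KD library 9 (limma adjusted p = 0.0643 and 0.0501 for Mllt1), and only Mllt1 passed without 36S library 3 or KD library 7 and in a fit without the trend, while Dot1l also missed without 36S library 1 and without the filter on low values.

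GFI1 binds DNA sites with the core AATC, and the start regions of the genes that fell are shown for this core. RefSeq windows of 300 bases on GRCm38.p6, from 250 bases before to 50 bases after a transcription start, were matched for 8 of the 9 genes (Psip1 was not in the table). The core, searched as AATC and as its reverse complement GATT, is in capitals, and each sequence is written 5′ to 3′ on the strand of the gene.
Mllt1, chr17:56935339-56935638, minus strand: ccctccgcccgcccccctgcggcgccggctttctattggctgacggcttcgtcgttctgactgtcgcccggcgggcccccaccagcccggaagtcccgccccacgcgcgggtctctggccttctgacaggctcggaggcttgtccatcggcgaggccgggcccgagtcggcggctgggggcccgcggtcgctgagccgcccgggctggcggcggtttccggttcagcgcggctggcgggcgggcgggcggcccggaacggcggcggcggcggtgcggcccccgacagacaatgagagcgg
Dot1l, chr10:80754953-80755252, plus strand: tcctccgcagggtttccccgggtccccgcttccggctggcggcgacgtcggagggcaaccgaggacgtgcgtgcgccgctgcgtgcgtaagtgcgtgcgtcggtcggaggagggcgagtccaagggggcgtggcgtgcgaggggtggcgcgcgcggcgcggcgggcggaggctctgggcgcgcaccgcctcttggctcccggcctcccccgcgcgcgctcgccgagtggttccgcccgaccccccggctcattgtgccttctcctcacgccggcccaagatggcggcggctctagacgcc
Aff1, upper window, chr5:103753912-103754211, plus strand: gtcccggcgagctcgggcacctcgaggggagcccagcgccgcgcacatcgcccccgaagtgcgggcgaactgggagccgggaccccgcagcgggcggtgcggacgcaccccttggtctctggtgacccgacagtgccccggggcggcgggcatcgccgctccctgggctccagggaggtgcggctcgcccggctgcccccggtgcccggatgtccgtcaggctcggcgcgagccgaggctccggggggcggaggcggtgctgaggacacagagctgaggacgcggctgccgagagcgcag
Aff1, lower window, chr5:103754323-103754622, plus strand: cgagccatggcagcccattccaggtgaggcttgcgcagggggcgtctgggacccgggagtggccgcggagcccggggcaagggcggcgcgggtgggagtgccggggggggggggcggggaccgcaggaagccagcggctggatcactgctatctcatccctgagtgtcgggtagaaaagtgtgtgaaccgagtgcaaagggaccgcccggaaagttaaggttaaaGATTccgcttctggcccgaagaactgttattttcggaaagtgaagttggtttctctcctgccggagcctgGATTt
The windows of Mllt1 and Dot1l and the upper Aff1 window held 0 cores, and the lower Aff1 window held 2. Both Aff1 windows lie inside the gene as GENCODE gives it, downstream of its outermost start, which was not examined. Of the genes that did not pass, Kmt2a held 1 core, Aff4 0, each of the 3 Men1 windows 4, Mllt3 1 at the outer and 4 at the inner start, and Mllt10 3, 3 and 0. Among all 32851 windows 73.1% held at least 1 core. The windows that are shown are rich in CpG dinucleotides, with 46, 49, 40 and 22 in the order given, against a median of 7 over all windows. This is not particular to the genes that fell: Aff4 held 44, Kmt2a 36 and Mllt3 29 at the outer and 4 at the inner start. Mllt10 held 7, 6 and 43, and Men1 11, 16 and 16. The share of all windows with a core was not matched for CpG content. A match describes letters and not a bound site, and a missing match covers only these windows.

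The other members did not pass between KD and 36S. Kmt2a stood at 4472, 5773 and 3398 in KD, on both sides of the 36S values (log2 fold change -0.18, interval -0.64 to 0.27). Mllt3 stood at 61.4, 119 and 69.0 (log2 fold change -0.56, interval -1.23 to 0.10). Men1, which encodes the MLL tether menin, was lower in all KD libraries (510.3, 455 and 468) than in all 36S libraries (589, 536 and 524), without passing (log2 fold change -0.20, limma adjusted p = 0.38). Mllt10, Psip1 and Aff4 overlapped, with log2 fold changes of 0.02, -0.28 and -0.08.

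**Figure D2:**
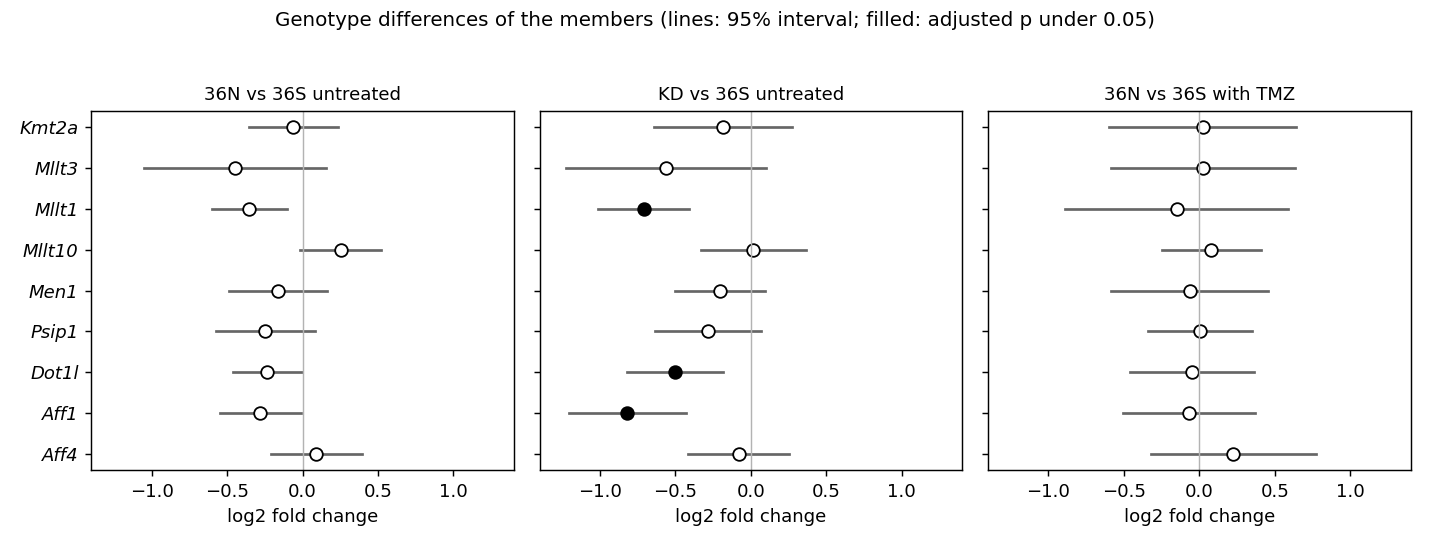
Log2 fold changes of the 9 genes (horizontal axes) in 3 comparisons, 36N with 36S and KD with 36S without drug and 36N with 36S under TMZ, with lines for the 95% interval and filled points for an adjusted p under 0.05. Filled points are Mllt1 (-0.71), Dot1l (-0.50) and Aff1 (-0.82) in KD, and none in the other panels.

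Markers of other cells moved with the same groups, and their part in the 3 decreases was not tested. The summed level of 8 markers of monocytes and macrophages was 84587 to 136595 in KD against 39149.5 to 44076 in 36S. That of 8 markers of leukemic myeloid progenitors was 34858 to 44097 against 68849.6 to 147972. Mpo (mean 14195 against 51882), Elane (10071 against 35189), Ctsg, Prtn3, Kit and Meis1 were lower in KD. Hoxa9 (2327 against 1741) and Hoxa10 (958 against 814) were higher by mean. The 8 T and NK cell markers summed to 178 to 664 in KD against 77.8 to 173 in 36S. The 7 markers of B and plasma cells summed to 6090.45 to 6698 in KD against 7601 to 11907 in 36S, and those of erythroid cells, megakaryocytes and neutrophils overlapped. Of 8 markers of mast cells and basophils, 5 were in the table, summing to 2294 to 2566 against 672 to 1046, and Fcer1a, Mcpt4 and Cma1 were not in it. Cpa3 (mean 1324 against 215) and Gata2 (1086 against 469) were higher in KD. Mcpt8 (42.9 against 73.4), Ms4a2 (1.58 against 25.9) and Prss34 (0.357 against 16.2) were lower by mean. The 8 markers of maturing neutrophils summed to 5567 to 65395 within 36S, with library 1 highest. Scaling also moved the balance of all genes: 57.6% of calls were higher as deposited and 39.3% with libraries at equal totals, where the median of all genes was -0.13 and the log2 fold changes of Mllt1, Dot1l and Aff1 were -0.83, -0.62 and -0.94, all past the threshold.

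Between KD and 36N none of the 9 genes passed, against 2.03% of all 13118 genes called higher and 1.21% called lower in limma (at an unadjusted p under 0.05, 2 of the 9 and 2491 of all genes). Mllt1 and Dot1l were lower in every KD library than in every 36N library (log2 fold changes -0.36 and -0.27, limma adjusted p = 0.209 and 0.323). Aff1 overlapped between them (log2 fold change -0.54, interval -0.94 to -0.14, limma adjusted p = 0.151), and passed without KD library 8 (-0.73, limma adjusted p = 0.0104), where 1986 of all genes were called in place of 425. With equal totals the median of all genes was -0.13, and 49.6% of the calls were higher in place of 62.6%. All 9 genes had negative log2 fold changes, as had 6681 of all 13118 genes, with a median of -0.17 against -0.01 for all genes. Those of Kmt2a, Mllt3, Men1 and Psip1 changed sign in fits that left out 1 library. The 3 untreated comparisons share libraries with each other, so their values are not independent.

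Other genes of the pathway were taken from 9 lists. Their counts stand beside 2.55% of all genes called higher and 2.01% lower in 36N, and 6.61% and 4.86% in KD, and in lists this short 1 gene sets the share, so nothing particular to a list is read from them. Of 8 genes for processing and partners of MLL1, 1 fell in 36N and in KD: Hcfc2, a homologue of the MLL cofactor HCF1, was at 101.5 ± 22.5 in 36N and 72.3 ± 17.1 in KD against 213 ± 10.2 in 36S (log2 fold changes -1.08 and -1.57, limma adjusted p = 0.0195 and 0.0022). Of 4 DOT1L complex and H3K79 partner genes, 1 fell in both, the BCL6 corepressor gene Bcor (-0.75 and -0.60). Of 11 LEDGF and HBO1 partner genes, 2 fell in each: Jade1 (-0.56) and Jade2 (-1.19) in 36N, and Jade1 (-1.10) and Ing5 (-0.62) in KD, genes of subunits that partner the histone acetyltransferase HBO1.

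The super elongation complex lost 1 of 14 tested genes in KD, the AF4 family gene Aff2 (247 ± 45.1 against 459 ± 111, log2 fold change -0.88), and 0 in 36N, where 2 had an unadjusted p under 0.05. Aff3, another AF4 family gene, was lower in KD than in 36N (71.4 ± 4.23 against 224 ± 80.5, log2 fold change -1.58). None of 4 core subunits shared by all MLL family complexes, 6 MLL family and SET1 enzymes or 6 PAF1 complex genes passed in 36N or KD against 36S in limma. At an unadjusted p under 0.05 these numbered 0, 1 and 2 in 36N and 2, 1 and 0 in KD. Of 22 other MLL fusion partners, 1 rose in KD, the actin regulator gene Abi1 (0.45), and 0 passed in 36N. At an unadjusted p under 0.05 there were 5 of the 22 in 36N and 7 in KD.

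MLL-AF9 target genes moved in both directions. In 36N, 3 of 16 tested rose and 2 fell (2.55% and 2.01% of all genes), among them Hoxa5 (-2.13), the receptor tyrosine kinase gene Flt3 (1.94) and the transcription factor gene Mef2c (1.34). In KD, Mef2c rose by 0.87 and 2 fell, among them the cell cycle kinase gene Cdk6 (13218 ± 1060.3 against 23768 ± 2729, log2 fold change -0.84). Between KD and 36N, Hoxa5 was higher in KD (1.58) and Flt3 lower (-1.43). The list's medians were -0.09 for 36N and -0.11 for KD against 36S, beside -0.01 for all genes.

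TMZ in 36N cells went with changes in 8 of the 9 genes, in a comparison where 36.3% of all 14390 genes were called higher and 33.5% lower (limma). Of the 9 genes 5 were called higher, Kmt2a, Mllt3, Men1, Psip1 and Aff4, and 3 lower, Aff1, Mllt10 and Dot1l. These shares lie in a comparison that called most genes, so being called sets no member apart, and the sizes are given instead. The changes of Mllt3 (7.32 on the log2 scale), Kmt2a (3.55) and Aff1 (-2.75) were the largest of the 9. With equal totals the median of all genes was -0.09 in place of 0.06.

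Before these values, the makeup of the libraries has to be given. The 8 markers of mast cells and basophils summed to 93921.5 to 269795 with TMZ against 350.2 to 1075 without, Fcer1a and Mcpt4 being listed at 0 in untreated 36N. The 6 markers of megakaryocytes and platelets summed to 28963 to 56753 against 34.6 to 69.8. The 7 markers of B and plasma cells summed to 214 to 504 against 8769 to 15078, and the 8 of monocytes and macrophages to 19322 to 51896.5 against 73166 to 84090.4. Of the latter, Ly6c2 (mean 3781 against 33325), Csf1r, Lyz2 and Vcam1 were lower with TMZ. Adgre1 (3196 against 1328), Ccr2 (4770 against 3562), C1qa (125 against 29.4) and C1qb (1020 against 94.1) were higher by mean. The sum of 8 T and NK cell markers was 6362 to 9038 against 158 to 245, but with Cd3e and Gzma at 0 and Gzmb at 7335 ± 1249. The 8 progenitor markers summed to 62045 to 85870.5 against 51143 to 64408, with all 8 above 10 in both groups, but they moved in both directions. With TMZ the means of Elane (2254 against 21085), Hoxa9 (652 against 2847), Hoxa10 (39.5 against 1229), Meis1 and Prtn3 were lower. Those of Kit (13630 against 387), Ctsg (19287 against 4358) and Mpo were higher. The part of these shifts in the changes of the 9 genes was not tested. Nothing in the labels or tables used here checks that treated and untreated cells differed by 20 h of drug alone, so every fold below compares libraries that also differ in these markers, and a change within cells and a change in which cells were present cannot be told apart.

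**Figure D3:**
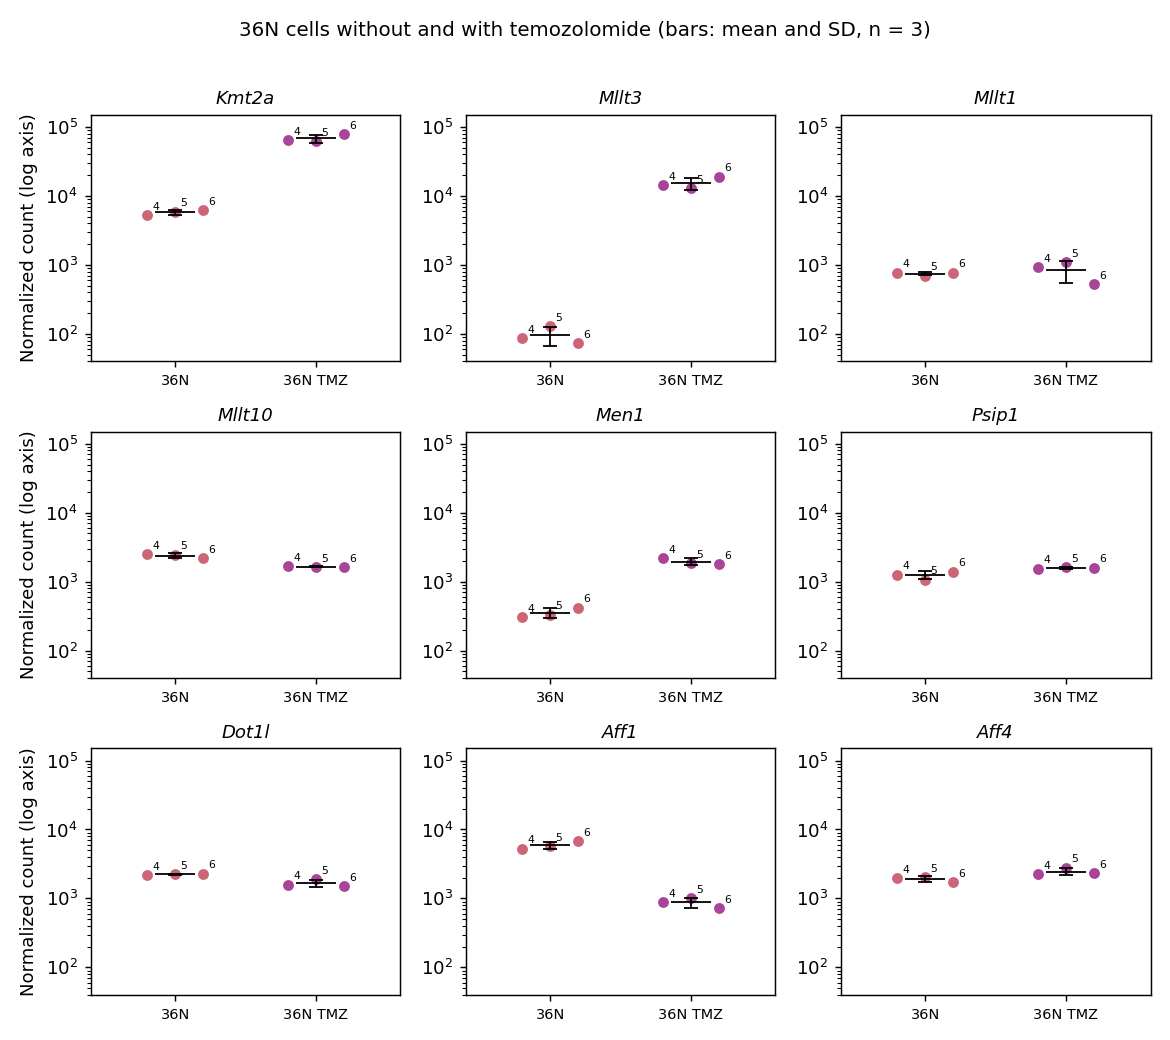
Normalized counts of the 9 genes (log axes) in 36N libraries 4 to 6 without and with TMZ, from the table that holds both groups, with bars for the mean and SD of 3 libraries. Mllt3 moves from 73.3 to 129 up to 13005 to 18923, Kmt2a from 5265 to 6203 up to 62393 to 78048, and Aff1 from 5243 to 6701 down to 726 to 1016.

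The genes that MLL-AF9 joins were the 2 that rose most among the 9. Kmt2a stood at 5265, 5879.9 and 6203 in untreated libraries 4 to 6 and at 63792, 62393 and 78048 with TMZ. Mllt3 stood at 87.3, 129 and 73.3 without TMZ and at 14238, 13005 and 18923 with it. No library of one group came near the other. Here too, reads of the retroviral fusion and of the mouse genes cannot be told apart. The counts, their ratio and their levels per kilobase may therefore hold both.

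Their means were 68078 ± 8663 against 5782 ± 477 for Kmt2a, an 11.8-fold increase (log2 fold change 3.55, SE 0.15, limma adjusted p = 1.97e-06). For Mllt3 they were 15388 ± 3122 against 96.4 ± 28.8, a 159.6-fold increase (log2 fold change 7.32, SE 0.23, limma adjusted p = 7.47e-07). Kmt2a took 0.356 to 0.427% of all normalized counts with TMZ and 0.0332 to 0.0395% without. Mllt3 took 0.0741 to 0.103% with TMZ and 0.000467 to 0.00082% without.

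The ratio of Kmt2a to Mllt3 counts, which is not per length and is compared only between libraries, was 4.12 to 4.80 in 36N with TMZ and 45.7 to 84.6 without. In the table of TMZ libraries it was 2.70 to 3.63 in 36S and 2.97 to 3.46 in 36N, which overlapped. In the untreated tables it was 31.3 to 52.6 in 36S, 41.6 to 77.0 in 36N and 48.3 to 72.8 in KD, which overlapped too. Only the table of 36N with and without TMZ holds both treatments, and there all TMZ libraries lay below all untreated ones. The other values are given side by side, since Kmt2a and Mllt3 carry different factors between tables, as described below. Per kilobase of merged exons, Kmt2a (4084 ± 519.6) and Mllt3 (1282 ± 260) became the highest of the 9 genes with TMZ, where Mllt3 had been the lowest at 8.03 ± 2.40.

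**Figure D4:**
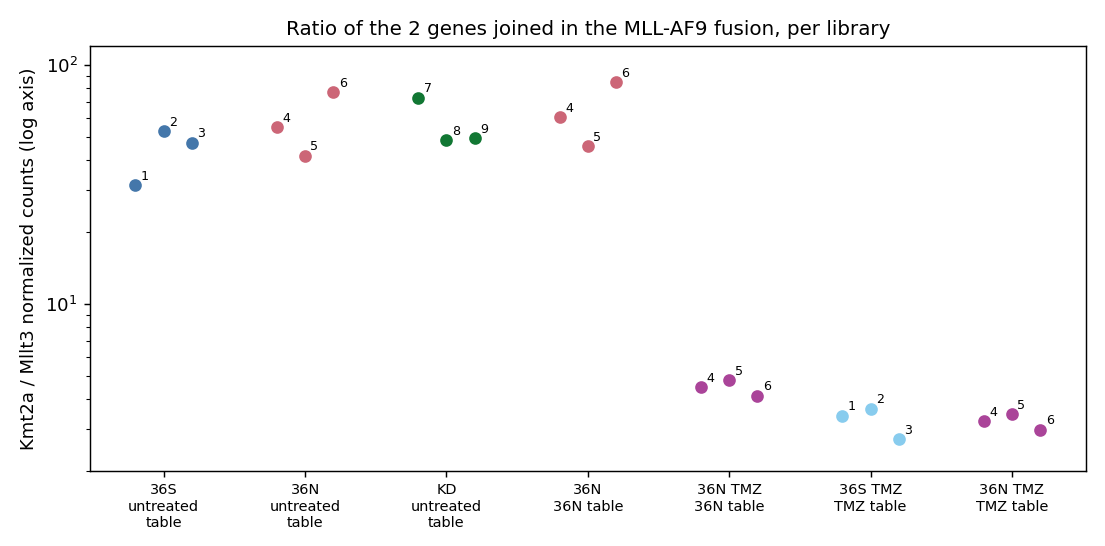
Ratio of Kmt2a to Mllt3 normalized counts (log axis) in every library, by group and deposited table, with points labelled by library number. In the table that holds both treatments, untreated 36N libraries lie at 45.7 to 84.6 and TMZ libraries at 4.12 to 4.80; ratios from different tables are not on 1 scale.

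Among the tethers of MLL, Men1 (chromosome 19, 6334979 to 6340891) stood at 307, 333 and 420.3 without TMZ and 2208, 1861 and 1782 with it. The groups were far apart, with a 5.52-fold higher mean (log2 fold change 2.47, SE 0.16, limma adjusted p = 1.09e-05). Men1 values carry a factor of their own between deposited tables, as given below, so this size holds for the table with both groups. Psip1 (chromosome 4, 83455680 to 83486459), which encodes the chromatin reader LEDGF, stood at 1267, 1068 and 1399 without TMZ and 1541, 1631 and 1591 with it. All TMZ libraries were higher, with a log2 fold change of 0.36 (limma adjusted p = 0.0372) that fell to 0.21 (adjusted p = 0.187) with equal totals and had an adjusted p of 0.0558 with the replicate block.

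In the elongation arm, Aff1 went down and Aff4 slightly up. Aff1 stood at 5243, 5751 and 6701 without TMZ and 889, 1016 and 726 with it, a 6.73-fold lower mean (log2 fold change -2.75, SE 0.16, limma adjusted p = 6.21e-06). Aff4 (chromosome 11, 53350833 to 53421830), the main scaffold of the super elongation complex, stood at 1957, 2051 and 1715 without and 2254, 2774 and 2321 with TMZ. All TMZ libraries were higher (log2 fold change 0.36, limma adjusted p = 0.0376), and with equal totals the change was 0.21 (adjusted p = 0.188).

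Mllt1 did not pass (log2 fold change 0.11, interval -0.50 to 0.72): its TMZ values of 923, 1088 and 521 lay on both sides of the untreated 770.4, 701 and 771.5. Without TMZ library 6 it was called higher (0.42, limma adjusted p = 0.0322). In the DOT1L arm, Mllt10 fell from 2516, 2451 and 2172 to 1682, 1631 and 1615, and Dot1l from 2163, 2248 and 2271 to 1573, 1891 and 1495. For both genes all TMZ libraries were lower, with log2 fold changes of -0.53 and -0.44 (limma adjusted p = 0.00278 and 0.0132). Calls of the smaller changes rested on single libraries: Dot1l missed without untreated library 5 (adjusted p = 0.0519), Psip1 without untreated library 4 or 5 or any 1 TMZ library (0.0679 to 0.152), and Aff4 without any 1 untreated library or TMZ library 5 (0.0606 to 0.116), all in limma.

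The same library did not have the same relative values in each table, and this touches single members. For the untreated 36N libraries, values in the table with TMZ over those in the untreated table had a ratio of 1.47 for the median gene, 0.714 for Men1, 1.99 for Aff1 and 1.99 for Aff4, with almost no spread between libraries (0.713 to 0.717 for Men1). For the 36N TMZ libraries, values in the table of TMZ libraries over those in the table with untreated cells had a ratio of 1.49 for the median gene, 0.739 for Men1, 2.20 for Kmt2a and 3.05 for Mllt3. Of all genes compared, 8.54% and 8.46% lay beyond 1.5-fold of the median ratio. Deposited values thus carry a factor per gene and table, whose origin is not given in the sources used here.

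With untreated values taken from the untreated table and TMZ values from the table of TMZ libraries, on a common median, the rise of Men1 was 0.42 on the log2 scale and did not pass (limma adjusted p = 0.0523), and that of Psip1 was 0.19 (adjusted p = 0.228). Mllt1 changed sign to -0.49 without passing. Kmt2a (3.82), Mllt3 (7.93), Aff1 (-1.81), Mllt10 (-1.46), Dot1l (-0.69) and Aff4 (0.73) kept their direction and passed. This comparison crosses separately normalized tables and was chosen after the data were seen. Scaling to a common median leaves each gene's own factor between tables in place. Its log2 fold changes differ from those within 1 table by these factors, so it does not check them.

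**Figure D5:**
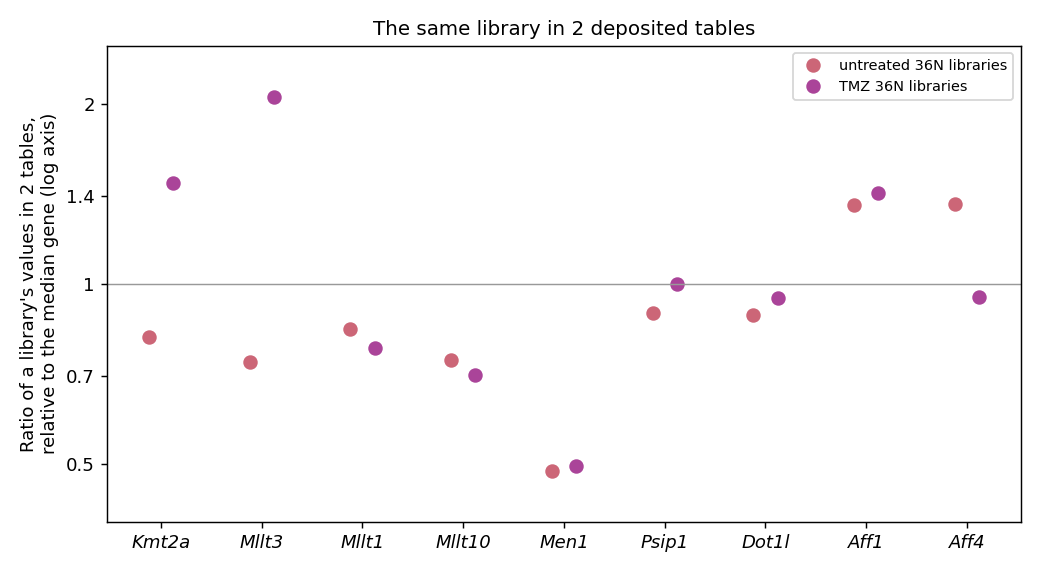
Ratio of a library's values in 2 deposited tables, divided by the ratio of the median gene (log axis), for the 9 genes in untreated 36N libraries (table with TMZ over untreated table) and in 36N TMZ libraries (table of TMZ libraries over table with untreated cells). Men1 lies at 0.487 and 0.496, and Mllt3 at 0.740 and 2.05.

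The wider machinery moved in both directions with TMZ. The counts that follow stand beside 36.3% of all genes called higher and 33.5% called lower, so a list's count alone does not set it apart. Of 6 MLL family and SET1 enzymes 4 fell and 0 rose: Setd1b (1484 ± 125 against 6006 ± 873, log2 fold change -2.01), Kmt2c (-1.58), Kmt2e (-0.59) and Kmt2d (-0.30, limma adjusted p = 0.0486). The Kmt2a count, which may include reads of the fusion, rose. Of 4 core subunits 1 rose, Wdr5 (0.67), which holds the MLL catalytic domain to the others. Of 8 processing and partner genes 5 rose and 2 fell, led by Hcfc2 (844 ± 119 against 147 ± 32.3, log2 fold change 2.52), Hcfc1 (2538 ± 182 against 13280.4 ± 647, log2 fold change -2.39), Ube2o, which encodes a ubiquitin ligase of MLL (2.13), and Tasp1, the protease that cleaves MLL (-0.94).

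Of 15 super elongation complex and P-TEFb genes 5 rose and 4 fell, among them Aff2 (14.8 ± 8.43 against 304 ± 219, log2 fold change -4.08), the elongation factor gene Ell2 (989 ± 217 against 229 ± 5.60, log2 fold change 2.08) and the 7SK capping enzyme gene Mepce (1.87). Of 4 DOT1L partners 3 rose and 0 fell: Tet1 (1.57), Mllt6 (1.11), a homologue of Mllt10, and Skp1a (0.90). Of 6 PAF1 complex genes 1 rose and 1 fell, Paf1 (0.71) and Cdc73 (-1.77). Of 11 LEDGF and HBO1 partners 4 rose and 3 fell, led by the LEDGF relative Hdgfl2 (1.75), Ing4 (1.03), Brpf1 (-0.88) and Kat7 (-0.76), the gene of HBO1. Of 22 other fusion partners 5 rose and 9 fell, led by Arhgap26 (-4.36), Afdn (2.75), Maml2 (-2.15) and Sept6 (-2.07).

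The MLL-AF9 target list went down while Kmt2a and Mllt3 counts went up. Of 17 target genes tested, 14 fell and 1 rose, beside 33.5% of all genes called lower and 36.3% called higher, with a median log2 fold change of -2.03 against 0.06 for all genes. Flt3 went from 2523 ± 856 to 20.3 ± 12.2 (-7.03 on the log2 scale), Mef2c from 5549.6 ± 256 to 145 ± 104 (-5.47), Hoxa10 from 1229 ± 566 to 39.5 ± 18.3 (-4.88) and Runx2 from 6195 ± 378 to 394 ± 67.3 (-3.98). Mecom, a zinc finger gene of stem cells, was the 1 that rose (2.53), from 7.16 ± 6.58 to 36.7 ± 15.6, and is named here after its values were seen.

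Whether the 36N form alters the fusion machinery under TMZ was asked by comparing 36N TMZ with 36S TMZ. None of the 9 genes passed, as 0% of all 14246 genes were called higher and 0% lower in limma (at an unadjusted p under 0.05, 0 of the 9 and 191 of all genes). Kmt2a stood at 134214, 145114 and 162232 in 36S TMZ and at 141692, 137339 and 169872 in 36N TMZ. Mllt3 stood at 39525, 39936.5 and 59998 in 36S TMZ and at 43912, 39748 and 57188 in 36N TMZ. The groups overlapped for both genes, and for all of the other 7.

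The intervals of the log2 fold change ran from -0.60 to 0.64 for Kmt2a and from -0.59 to 0.64 for Mllt3 in the fit without pairs. They were widest for Mllt1 (-0.89 to 0.59) and narrowest for Mllt10 (-0.25 to 0.41). Mllt1 was lowest in library 3 of 36S TMZ (796) and library 6 of 36N TMZ (601), and highest in library 2 (1332) and library 5 (1268). Across all genes, too, libraries 1 and 4, 2 and 5, and 3 and 6 deviated together (correlations of 0.35 to 0.45, against -0.24 to -0.12 for other pairs), without a stated reason. Deviations from a group mean cancel within the group, so positive values in like pairs make those of other pairs negative on average. The negative values are therefore no separate result. In a fit with these pairs as a block, chosen after the likeness was seen, still 0 of the 9 and 0 of all genes passed in limma (at an unadjusted p under 0.05, 0 of the 9 and 781 of all genes). Its intervals were narrower, from -0.36 to 0.40 for Kmt2a, -0.31 to 0.36 for Mllt3 and -0.50 to 0.20 for Mllt1, and differences within them are not excluded by these libraries. The median log2 fold change of the 9 genes was 0.0034, against 0.01 for all genes.

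The interaction of genotype and TMZ, each genotype difference taken within its own table, passed for 0 of the 9 genes, against 0.235% of all 12324 genes called higher and 0.0974% called lower in limma (at an unadjusted p under 0.05, 0 of the 9 and 861 of all genes). Estimates ran from -0.17 for Mllt10 to 0.47 for Mllt3, whose interval was -0.27 to 1.22. They were positive for 8 of the 9 and for 6597 of all 12324 genes. TMZ was not tested within 36S, since no table used here holds 36S with and without TMZ.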

How the data were processed

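RNA came from whole leukemic marrow and was poly(A)-selected, per the labels' protocols. The authors deposited a normalized signal per gene in 4 tables; the submitters' processing notes name Salmon, DESeq2 and the build mm10, and further steps were not stated. After the best rescaling 26.6 to 57.9% of low values came out whole (tolerance 0.1, chance 20%), so read depth is unknown and limits on counting error are not given. Whether counting used strand is not stated, so the overlapping antisense genes Snapc3 (at Psip1) and Dnajc1 (at Mllt10) may share reads.

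Values were analysed as log2(value + 1), which understates changes of low genes. Genes that reached 10 in 3 or more of a fit's libraries were tested with limma-trend (limma 3.58.1, R 4.3.3), with Benjamini-Hochberg adjustment and a threshold of 0.05. The script was tested on simulated data. Other settings tried were a pseudocount of 0.5 or 5, dropping the filter or raising it to 50, equal totals, no trend, 1 fit of all untreated libraries, a replicate block, leaving out each library and, added after the data were seen, bridged tables and a block of like TMZ libraries. Deviations of same-numbered 36N libraries correlated at 0.019, 0.037 and 0.086 and those of 36S at -0.056, 0.028 and -0.002; numbers were not treated as pairs. The members and lists were chosen with earlier results of these data known. The 9 members were named always, and from each list up to 4 genes past the threshold with the largest change; some genes that this rule takes are not reported here.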

Additional observations from a re-analysis of the deposited data

How the results depend on the processing

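Of 765 alternative values for single members, 692 kept their direction and side of the threshold, 31 lost a call, 2 gained one and 40 changed sign, none of them a called value. With equal totals, Mllt10 in KD against 36S was -0.10, Mllt1 with TMZ -0.043 and Psip1 in 36N against 36S with TMZ -0.012. With bridged tables, chosen after the data were seen and still carrying the factor per gene and table, Mllt1 with TMZ was -0.49. Pseudocounts, the filter of 50 and the common untreated fit changed no member's call. Without the trend, KD against 36S called 1 member, 36N against 36S 305 genes and KD against 36N 203 genes. For the interaction, the replicate block gave 19 genes in place of 41 and the filter of 50 gave 27; the block changed no other member call than that of Psip1 with TMZ.

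When each library was left out, genes called ranged from 188 to 508 for 36N against 36S, 591 to 2051 for KD against 36S, 116 to 1986 for KD against 36N, 8192 to 8901 for TMZ, 0 to 1 for 36N against 36S with TMZ and 8 to 34 for the interaction. The lowest counts for 36N and KD against 36S and for the interaction came without untreated 36S library 2, and the highest for KD without KD library 8. Members called ranged from 0 to 3 for KD against 36S, 0 to 1 for KD against 36N and 5 to 8 for TMZ. Log2 fold changes of uncalled members crossed 0. For 36N against 36S these were Kmt2a (-0.15 to 0.057) and Aff4 (-0.014 to 0.18). For KD against 36S they were Kmt2a (-0.37 to 0.0090), Mllt10 (-0.11 to 0.12) and Aff4 (-0.19 to 0.012). For KD against 36N they were Kmt2a (-0.31 to 0.071), Mllt3 (-0.40 to 0.11), Men1 (-0.13 to 0.090) and Psip1 (-0.15 to 0.047), and for TMZ Mllt1 (-0.11 to 0.42). With TMZ, 36N against 36S gave Kmt2a -0.073 to 0.094, Mllt3 -0.13 to 0.22, Mllt1 -0.37 to 0.17, Men1 -0.24 to 0.14, Psip1 -0.067 to 0.069, Dot1l -0.15 to 0.054, Aff1 -0.18 to 0.066 and Aff4 -0.016 to 0.40. The interaction gave Kmt2a -0.035 to 0.18, Mllt1 -0.011 to 0.53, Men1 -0.074 to 0.30 and Aff4 -0.11 to 0.31. The cause was not tested.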

Other observations

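The TMZ libraries of the 2 genotypes resembled each other across genotype by number. Over genes, deviations from the group means correlated at 0.39 for 36S 1 with 36N 4, 0.45 for 36S 2 with 36N 5 and 0.35 for 36S 3 with 36N 6. All other pairs were at -0.24 to -0.12, which follows on average from subtracting group means, as described above. Among the 9 genes Mllt1 followed this order, with 796 and 601 in the third pair against 1063 to 1332 in the others. So did Dot1l, with 2069 and 2084 against 2238 to 2755. Aff1 was lowest in the third pair, at 1674 and 1520. Mllt3 was highest there, at 59998 and 57188, as was Kmt2a, at 162232 and 169872. Mllt10 was highest in library 3 of 36S TMZ and lowest in library 6 of 36N TMZ.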
